A study of Homo sapiens with 15 samples.

Results

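The comparison described here sets 3 arrays of hypoxic A549 cells given the compound BB2-125 against 3 arrays of normoxic A549 cells given vehicle, 6 of the 15 arrays in the series. The members were chosen by their titles, and the question was which transcripts stayed above or below their normoxic level with the compound present, and which lay at that level or past it. The BB2-125 cultures received 10 µM compound, then after 6 h were sealed in a GasPak pouch, which removes oxygen, for another 42 h. The hypoxic vehicle cultures (3 arrays), which define the response to hypoxia here, went through the same hours with vehicle alone, and the normoxic vehicle cultures (3 arrays) had vehicle without hypoxia. All groups held 0.1% DMSO. Hypoxic cultures given 10 µM BB2-162 or BB2-282 (3 arrays each) complete the series and share in the estimate of the spread. The design text calls the compounds transcriptional inhibitors. None of the arrays used here held a compound in normoxia, so an action of BB2-125 on the hypoxic response and an action that it would have at any oxygen level cannot be told apart.

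A549 is a human lung adenocarcinoma line of alveolar epithelial type. When oxygen is plentiful, prolyl hydroxylases of the EGLN family mark the alpha subunits of hypoxia-inducible factor (HIF), encoded by HIF1A and EPAS1, for destruction through the VHL protein. When oxygen runs out, the alpha subunits persist, pair with ARNT, bind short DNA elements with an RCGTG core and recruit the coactivators EP300 and CREBBP. Their targets drive glycolysis, vessel growth, collagen maturation and a brake on mitochondrial oxygen use, while long oxygen loss also starts stress programmes that do not need HIF.

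The values are log2 of the deposited array intensities, 1 probe set per gene. A gene was called when its adjusted p was under 0.05 in limma, with Benjamini-Hochberg adjustment over 16005 genes tested, and "rose" or "fell" is used of called genes alone. A change is a difference of group means in log2 units, so that 1 is 2-fold, and the error after ± is its standard error with 3 arrays in each group. The labels call the arrays of a group biological replicates and say no more, and p-values rest on the spread among arrays, which may be technical. The arrays were of even brightness, with median intensities of 74.91 to 84.6. BB2-125 arrays correlated with each other at 0.9912 to 0.9956 and with the normoxic arrays at 0.9426 to 0.9554. BB2-162 replicate 1 lay farthest from its group mean of the 15 arrays, with a root mean square deviation of 0.221, against 0.102 to 0.148 for the BB2-125 arrays. Without that array the comparison with normoxia had 10537 called genes. The 12 epithelial and A549 markers were all above the dim level of the array, its 25th percentile. Their summed intensity was 30010 to 32530 in BB2-125 cultures, 24230 to 26580 in hypoxic vehicle and 46610 to 50890 in normoxic vehicle. Of the markers of other cell types, 4 of 10 fibroblast and 4 of 10 leukocyte genes lay at or below the dim level in each of these groups, as did 2 of 10 endothelial genes with BB2-125 and 3 of 10 in either vehicle group. Their summed intensities were 853.9 to 910.5, 910.4 to 1010 and 684.3 to 729.2 for fibroblast genes in BB2-125, hypoxic vehicle and normoxic vehicle cultures. Leukocyte genes summed to 2403 to 2545, 2658 to 2953 and 764 to 806.9 in the same order of groups, and endothelial genes to 518.7 to 583.2, 485.9 to 538.6 and 446.9 to 482.2. Most of the leukocyte sum was CD68, a lysosomal protein at 11, 11.09 and 11.07 in BB2-125 cultures, 11.19, 11.31 and 11.33 in hypoxic vehicle and 8.96, 8.91 and 8.98 in normoxic vehicle. The part of other cell types in the results below was not tested.

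Most of the transcriptome differed between hypoxic cells with BB2-125 and normoxic cells. Of 16005 genes, 9916 were called (62%), with 5041 higher (31.5%) and 4875 lower (30.5%). At least 2-fold changes were more often downward, with 732 genes called and at least 2-fold higher (4.57%) and 1962 called and at least 2-fold lower (12.3%). The 3 BB2-125 arrays did not overlap the 3 normoxic arrays in 11291 genes (70.5%). Hypoxic vehicle against the same normoxic arrays gave 9207 calls (57.5%), with 28.2% of genes higher and 29.4% lower, 835 genes called and at least 2-fold higher (5.22%) and 1897 at least 2-fold lower (11.9%). The median change over all genes was 0.095 with BB2-125 and 0.091 in hypoxic vehicle. In cultures as a whole, a change in the RNA of each cell and a change in which cells are present cannot be told apart.

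Among the genes that hypoxia moved at least 2-fold, most stayed away from normoxia in the same direction with BB2-125. Of the 835 genes that hypoxia raised, 733 (87.8%) were still called above normoxia, 475 of them at least 2-fold. Another 47 were at the normoxic level, meaning that they were not called and the 95% interval of their change lay within -0.5 to 0.5. The other 55 were 16 genes that lay below normoxia, beyond the level they would return to, and 39 that could not be placed because their interval was wider. Of the 1897 genes that hypoxia lowered, 1841 (97.0%) were still below normoxia, 1410 of them at least 2-fold, 28 were at the normoxic level, 1 lay above it and 27 could not be placed. Being still above or below normoxia required a call but no minimum change. Called changes within -0.5 to 0.5 were therefore counted there, such as AMOTL2 at 0.28 and ACAT2 at -0.29. In hypoxic vehicle these genes were at 1.13 and -2.24. The number that could not be placed was sensitive to single arrays. It was 66, 64, 61 and 64 of the raised genes without BB2-125 replicates 1 and 2 and normoxic replicates 2 and 3. Of the lowered genes it was 43, 50, 44 and 43 without BB2-125 replicates 2 and 3 and normoxic replicates 2 and 3, and 17 without BB2-162 replicate 1.

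**Figure D1:**
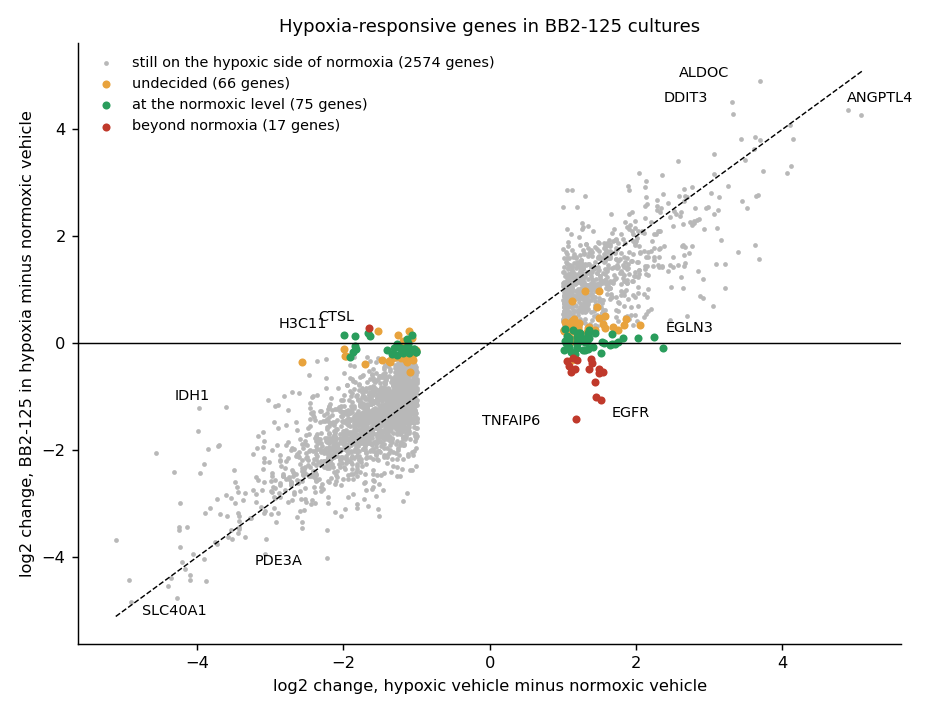
Change in BB2-125 cultures (y axis) and in hypoxic vehicle cultures (x axis), each against the normoxic vehicle on the log2 scale, for the hypoxia-responsive genes, with colours for the classes and a dashed line where both changes are equal. Both axes use the same 3 normoxic arrays, so the slope of the cloud is no separate result; of the raised genes 733 lie above the zero line as called and 16 below it, and of the lowered genes 1841 lie below it and 1 above.

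Staying away from normoxia did not mean staying at the hypoxic level. BB2-125 against hypoxic vehicle gave 4539 calls over all genes (28.4%), with 2135 higher (13.3%) and 2404 lower (15%). Of the 733 raised genes still above normoxia, 338 were called nearer to normoxia than in hypoxic vehicle, 328 were not told apart from it and 67 were called farther away. For the 1841 lowered genes still below normoxia these counts were 588, 1060 and 193. Deviations of same-numbered arrays of these groups correlated at 0.189 to 0.328, which alone cannot show that the arrays are pairs. A fit of the BB2-125 and hypoxic vehicle arrays alone, with the number as a block, was chosen after seeing the data. In it the counts were 372, 280 and 81 for the raised genes and 672, 930 and 239 for the lowered ones. The hypoxic vehicle arrays that chose these genes also enter this comparison, so the counts describe the genes and carry no test.

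Some genes for secreted products of the HIF programme remained well above normoxia. Of 17 tested genes for secreted HIF targets, 13 rose and 2 fell against normoxia, with a median change of 0.75, against 13 and 0 and a median of 1.16 in hypoxic vehicle. The earlier background of 31.5% higher and 30.5% lower applies to these counts. Changes ran from -1.45 to 4.27, and 6 genes were called at least 2-fold higher. Against hypoxic vehicle 9 were lower and 1 higher, where 15% and 13.3% of all genes were. TGFA, which hypoxia raised at least 2-fold, lay below normoxia.
VEGFA, the main signal for vessel growth, read 10.44, 10.59 and 10.59 in BB2-125 cultures, 11.28, 11.54 and 11.43 in hypoxic vehicle and 7.80, 7.84 and 7.63 in normoxic vehicle. The 3 groups did not overlap, with BB2-125 between the others. The gene rose by 2.78 ± 0.11 over normoxia (adjusted p = 3.66e-13) and was -0.87 ± 0.11 against hypoxic vehicle (adjusted p = 8.04e-06).
ADM, which encodes the vasodilator peptide adrenomedullin, read 12.45, 12.78 and 12.62 with BB2-125, 12.42, 12.43 and 12.34 in hypoxic vehicle and 8.78, 8.70 and 8.83 in normoxia. Both hypoxic groups stood far above normoxia. The rise with BB2-125 was 3.85 ± 0.10 (adjusted p = 2.97e-15), and the difference from hypoxic vehicle was 0.22 ± 0.10, with a 95% interval of 0 to 0.43 (adjusted p = 0.136).
ANGPTL4, an inhibitor of lipoprotein lipase, was at 10.67, 10.92 and 10.86 in BB2-125 cultures, against 11.52, 11.86 and 11.51 in hypoxic vehicle and 6.66, 6.60 and 6.39 in normoxic vehicle. It rose by 4.27 ± 0.16 (adjusted p = 1.61e-13), one of the 5 largest rises, and stayed -0.81 ± 0.16 against hypoxic vehicle. STC2, the glycoprotein stanniocalcin 2, rose by 3.22 ± 0.12, against 3.73 ± 0.12 in hypoxic vehicle.
Other members of the list came much nearer to normoxia. EFNA1, a membrane ligand of Eph receptors, rose by 1.03 ± 0.10, against 2.64 ± 0.10 in hypoxic vehicle. IGFBP3 rose by 0.93 ± 0.13 and IGFBP1 by 0.51 ± 0.15, where hypoxic vehicle gave 1.66 ± 0.13 and 2.69 ± 0.15. Both encode carrier proteins of insulin-like growth factors.

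Glycolytic targets also included large rises. Of 25 tested glucose transport and glycolysis genes, 16 rose and 4 fell, where 31.5% of all genes were higher and 30.5% lower. Their median was 0.40, against 0.65 in hypoxic vehicle. All 11 members that hypoxia raised at least 2-fold were still above normoxia, where 87.8% of all such genes were.
ALDOC, an aldolase isozyme, had the largest rise of any gene. It read 11.73, 12.05 and 12.01 in BB2-125 cultures, 10.82, 10.64 and 10.68 in hypoxic vehicle and 7.07, 6.92 and 7.07 in normoxic vehicle. No 2 of these groups overlapped, and BB2-125 was the highest. The rise over normoxia was 4.91 ± 0.14 (adjusted p = 3.95e-15), a fold of 30.1, and the excess over hypoxic vehicle was 1.21 ± 0.14 (adjusted p = 2.07e-06).
HK2, the hexokinase that commits glucose to the pathway, read 10.01, 10.56 and 10.33 with BB2-125, 10.17, 10.44 and 10.22 in hypoxic vehicle and 6.90, 6.41 and 6.68 in normoxia. The hypoxic groups overlapped and lay apart from normoxia, with a rise of 3.64 ± 0.17 (adjusted p = 3.3e-12). The glucose transporter SLC2A3 rose by 3.42 ± 0.10 and differed from hypoxic vehicle by -0.06 ± 0.10 (95% interval -0.26 to 0.14).
SLC2A1, the other main glucose transporter, read 12.30, 12.51 and 12.45 with BB2-125, 12.89, 12.97 and 12.95 in hypoxic vehicle and 10.78, 10.81 and 10.83 in normoxia. Its BB2-125 arrays lay between the vehicle groups. It rose by 1.61 ± 0.11 (adjusted p = 4.11e-10) and was -0.52 ± 0.11 against hypoxic vehicle (adjusted p = 0.00118). ENO2, an enolase isozyme, rose by 2.52 ± 0.11, and PDK1, a pyruvate dehydrogenase kinase, by 2.46 ± 0.14. The regulators PFKFB3 and PFKFB4, which make the activator of phosphofructokinase, rose by 1.79 ± 0.12 and 1.42 ± 0.11.

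**Figure D2:**
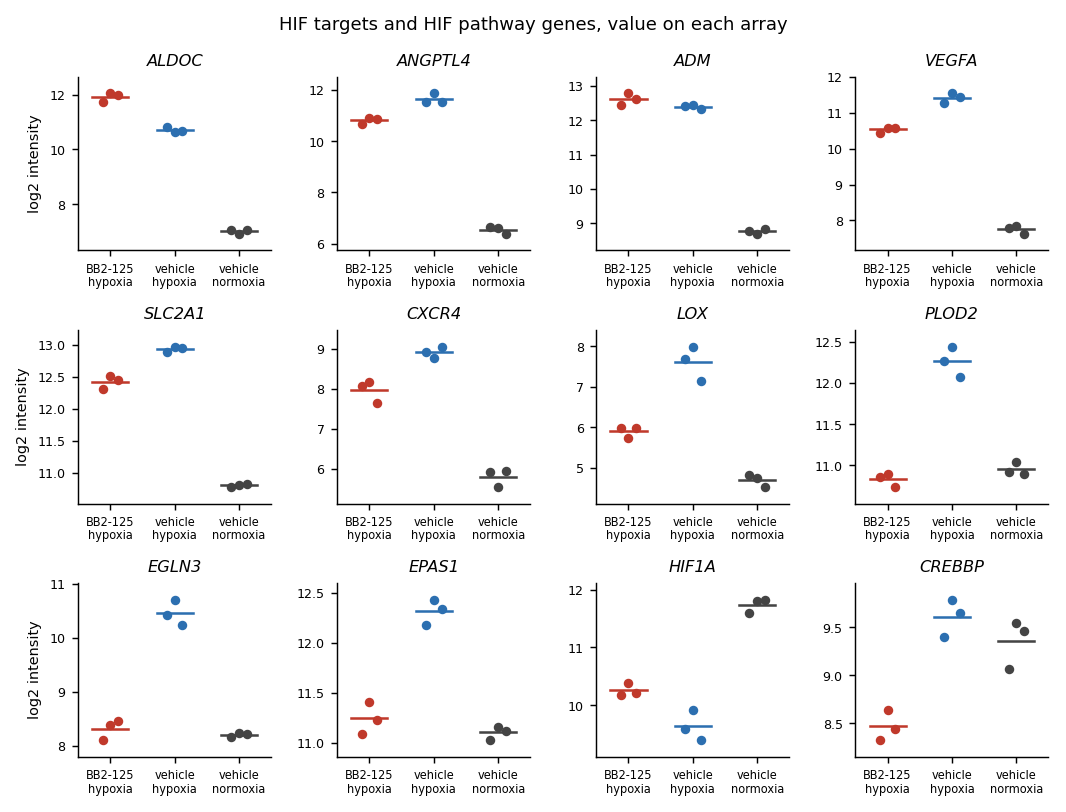
Log2 intensity of HIF targets and pathway genes on each array, with BB2-125 left of hypoxic vehicle and normoxic vehicle; points are arrays and lines are group means of 3. ALDOC stands highest with BB2-125, VEGFA lies between the vehicle groups, and EGLN3 overlaps normoxia.

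A broader group of 40 tested HIF targets had 32 members higher and 4 lower, where 31.5% of all genes were higher and 30.5% lower. Its median was 0.95, against 1.31 in hypoxic vehicle. NDRG1, a stress-response gene, read 12.70, 12.85 and 12.79 with BB2-125, 13.02, 13.19 and 13.09 in hypoxic vehicle and 8.99, 9.01 and 8.86 in normoxia. It rose by 3.82 ± 0.09 (adjusted p = 1.26e-15). PLIN2, a coat protein of lipid droplets, was at 11.05, 11.20 and 11.07 with BB2-125, against 10.76, 10.78 and 10.62 in hypoxic vehicle and 7.31, 7.28 and 7.28 in normoxia. Its rise of 3.82 ± 0.09 exceeded that in hypoxic vehicle by 0.38 ± 0.09 (adjusted p = 0.00377). HILPDA, an inhibitor of lipid droplet breakdown, rose by 3.80 ± 0.11, and differed from hypoxic vehicle by 0.11 ± 0.11 (95% interval -0.13 to 0.34). DDIT4, which restrains mTORC1 signalling, rose by 2.89 ± 0.08, and BNIP3, which promotes the removal of mitochondria, by 1.49 ± 0.10.
CXCR4, a chemokine receptor, read 8.06, 8.16 and 7.64 with BB2-125, 8.91, 8.76 and 9.05 in hypoxic vehicle and 5.92, 5.55 and 5.94 in normoxia. BB2-125 again lay between the vehicle groups, with a rise of 2.15 ± 0.13 over normoxia (adjusted p = 1.67e-10) and -0.95 ± 0.13 against hypoxic vehicle (adjusted p = 2.68e-05).

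Genes for collagen maturation were called about as often as all genes (31.5% higher and 30.5% lower). Of 16 tested, 6 rose and 4 fell, with a median of -0.063, while hypoxic vehicle gave 8 and 1 with a median of 0.23. The collagen-crosslinking oxidase LOX read 5.98, 5.73 and 5.99 in BB2-125 cultures, 7.68, 7.99 and 7.14 in hypoxic vehicle and 4.82, 4.75 and 4.53 in normoxic vehicle. The groups did not overlap, and the BB2-125 arrays lay between the other two groups. LOX rose by 1.20 ± 0.16 over normoxia (adjusted p = 2.31e-06), against 2.91 ± 0.16 in hypoxic vehicle. Its relative LOXL2 rose by 2.76 ± 0.11, and the collagen prolyl hydroxylases P4HA1 and P4HA2 by 2.19 ± 0.17 and 1.70 ± 0.11. PLOD2, which hydroxylates collagen lysines, was different. It read 10.86, 10.89 and 10.74 with BB2-125, 12.27, 12.44 and 12.07 in hypoxic vehicle and 10.92, 11.04 and 10.90 in normoxia, a change of -0.12 ± 0.12 from normoxia (95% interval -0.38 to 0.14, adjusted p = 0.389). It was the 1 gene of the 49 in the 4 lists of HIF targets raised at least 2-fold by hypoxia that was at the normoxic level. EGLN3, which HIF also induces, was counted with the HIF pathway instead and was at the normoxic level too. Of the others 47 were still above normoxia, 25 of them nearer to it than hypoxic vehicle, 18 not told apart from hypoxic vehicle and 4 farther away (26, 16 and 5 with the replicate block), and 1, TGFA, lay below normoxia.

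Promoters of 4 HIF targets are shown, since HIF is known to bind an RCGTG core. Within the 4 lists of HIF targets, ALDOC and ANGPTL4 had the largest rises over normoxia. PLOD2 and TGFA had the largest hypoxic rises of those not above normoxia with BB2-125. EGLN3, on the list of the HIF pathway, was outside this choice. They span 250 bases before to 50 after the RefSeq start in GRCh38.p14, are written 5′ to 3′ on the strand of the gene, and capitals mark every ACGTG and GCGTG on either strand. ALDOC lies at chr17:28576846-28577145 on the minus strand, ANGPTL4 at chr19:8363905-8364204 on the plus strand, PLOD2 at chr3:146161135-146161434 on the minus strand and TGFA at chr2:70553777-70554076 on the minus strand.
ALDOC: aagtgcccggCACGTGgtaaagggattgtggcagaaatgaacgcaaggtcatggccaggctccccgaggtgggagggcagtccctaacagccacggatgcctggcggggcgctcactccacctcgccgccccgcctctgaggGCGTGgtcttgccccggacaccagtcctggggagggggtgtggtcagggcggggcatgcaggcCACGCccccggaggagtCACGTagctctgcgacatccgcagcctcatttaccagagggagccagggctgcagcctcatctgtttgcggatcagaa
ANGPTL4: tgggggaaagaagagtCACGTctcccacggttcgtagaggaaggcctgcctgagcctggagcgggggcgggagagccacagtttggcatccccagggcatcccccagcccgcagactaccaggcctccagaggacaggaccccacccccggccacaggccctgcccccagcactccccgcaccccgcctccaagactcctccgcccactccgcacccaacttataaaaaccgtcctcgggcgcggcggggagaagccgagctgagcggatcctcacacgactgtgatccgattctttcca
PLOD2: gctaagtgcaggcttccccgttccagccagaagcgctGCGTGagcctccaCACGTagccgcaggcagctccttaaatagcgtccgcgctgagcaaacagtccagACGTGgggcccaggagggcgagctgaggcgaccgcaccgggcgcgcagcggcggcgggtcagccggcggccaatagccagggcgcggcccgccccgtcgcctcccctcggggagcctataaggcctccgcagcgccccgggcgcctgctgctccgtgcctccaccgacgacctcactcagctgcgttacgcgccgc
TGFA: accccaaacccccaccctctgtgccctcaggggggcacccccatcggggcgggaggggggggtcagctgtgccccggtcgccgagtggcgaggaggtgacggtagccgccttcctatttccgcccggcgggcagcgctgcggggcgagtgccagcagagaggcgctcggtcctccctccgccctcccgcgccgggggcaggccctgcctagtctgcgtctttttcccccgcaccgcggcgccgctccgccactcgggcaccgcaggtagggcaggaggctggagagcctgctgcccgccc
The ALDOC window held 3 ACGTG and 2 GCGTG matches, of which 1 pair of ACGTG matches overlaps on opposite strands as CACGTG. The ANGPTL4 window held 1 ACGTG match and 0 of GCGTG. PLOD2, at its normoxic level, held 2 ACGTG and 1 GCGTG, and TGFA, below its normoxic level, held neither. Of 27305 promoter windows of this length, 21.6% held ACGTG, 36.3% GCGTG and 48.4% either. A match describes the letters in the window and is no evidence of binding.

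Of 18 tested components of the HIF pathway, 4 rose and 9 fell, where 31.5% of all genes were higher and 30.5% lower. HIF1A, the broadly expressed alpha subunit, read 10.18, 10.38 and 10.21 with BB2-125, 9.58, 9.92 and 9.40 in hypoxic vehicle and 11.59, 11.80 and 11.83 in normoxia. It changed by -1.48 ± 0.15 against normoxia (adjusted p = 1.31e-07) and lay above hypoxic vehicle by 0.63 ± 0.15 (adjusted p = 0.00429).
EPAS1, which encodes HIF-2 alpha, read 11.09, 11.41 and 11.23 with BB2-125, 12.18, 12.43 and 12.34 in hypoxic vehicle and 11.03, 11.16 and 11.12 in normoxia. The BB2-125 and normoxic arrays overlapped, with a change of 0.14 ± 0.12 (95% interval -0.12 to 0.39, adjusted p = 0.324), where hypoxic vehicle was 1.21 ± 0.12 above normoxia. EGLN3, the oxygen-sensing prolyl hydroxylase that HIF itself induces, read 8.11, 8.38 and 8.45 with BB2-125, 10.43, 10.71 and 10.24 in hypoxic vehicle and 8.16, 8.23 and 8.22 in normoxia. Its BB2-125 arrays overlapped normoxia, with a change of 0.11 ± 0.12 (adjusted p = 0.436), while hypoxic vehicle stood 2.25 ± 0.12 above.
ARNT, the common partner of the alpha subunits, differed from normoxia by 0.05 ± 0.11 (95% interval -0.17 to 0.28). The coactivator EP300 read 7.48, 7.97 and 7.61 with BB2-125, 8.44, 8.94 and 8.59 in hypoxic vehicle and 8.14, 8.77 and 8.67 in normoxia. Its relative CREBBP read 8.33, 8.64 and 8.44 with BB2-125, 9.40, 9.79 and 9.65 in hypoxic vehicle and 9.07, 9.55 and 9.46 in normoxia. Both fell below normoxia with BB2-125, EP300 with a change of -0.84 ± 0.19 (adjusted p = 0.000855) and CREBBP with -0.89 ± 0.17 (adjusted p = 0.00018). In hypoxic vehicle neither was called, at 0.13 ± 0.19 and 0.25 ± 0.17. CITED2, which competes with HIF for these coactivators, rose by 1.59 ± 0.11, against 1.87 ± 0.11 in hypoxic vehicle. EGLN1 and VHL, which limit HIF in normoxia, changed by -0.89 ± 0.11 and -0.43 ± 0.11 and were both called lower.

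Genes that went past normoxia included a growth factor receptor and one of its ligands. EGFR, the epidermal growth factor receptor, read 7.27, 7.86 and 7.41 in BB2-125 cultures, 9.85, 10.40 and 10.06 in hypoxic vehicle and 8.36, 8.68 and 8.71 in normoxic vehicle. The groups did not overlap and BB2-125 was the lowest. EGFR was -1.07 ± 0.17 against normoxia (adjusted p = 3.45e-05), whereas hypoxic vehicle was 1.52 ± 0.17 above it (adjusted p = 4.96e-07).
TGFA, a ligand of that receptor, read 7.03, 7.25 and 7.17 with BB2-125, 8.83, 8.85 and 8.70 in hypoxic vehicle and 7.62, 7.78 and 7.51 in normoxia. It had the same order of groups, with -0.49 ± 0.11 against normoxia (adjusted p = 0.00106) and 1.16 ± 0.11 in hypoxic vehicle. Another ligand, EREG, went the other way, with a rise of 1.93 ± 0.20 over normoxia where hypoxic vehicle was -0.56 ± 0.20. MET, the receptor of hepatocyte growth factor, read 8.71, 9.27 and 8.90 with BB2-125, 10.58, 11.15 and 10.52 in hypoxic vehicle and 9.96, 10.19 and 10.23 in normoxia. It lay -1.17 ± 0.19 from normoxia (adjusted p = 3.7e-05) although hypoxia alone raised it by 0.62 ± 0.19, short of the 2-fold that the classes require. Of 20 tested receptor tyrosine kinases, 5 rose and 8 fell, where 31.5% of all genes were higher and 30.5% lower. AXL stayed above normoxia by 1.38 ± 0.14, FGFR1 differed from it by 0.20 ± 0.11 (95% interval -0.04 to 0.44) and FGFR4 changed by -2.87 ± 0.10 with BB2-125, against -2.95 ± 0.10 in hypoxic vehicle.

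Further genes raised by hypoxia and below normoxia with BB2-125 had other roles. TNFAIP6, a secreted hyaluronan-binding protein, read 4.81, 4.53 and 4.69 with BB2-125, at the dim level, 6.95, 8.29 and 6.58 in hypoxic vehicle and 6.16, 6.08 and 6.03 in normoxia. Its change of -1.42 ± 0.29 (adjusted p = 0.000318) is a fitted value, and counted from the dim level the change was -1.33 or lower. Hypoxic vehicle replicate 2 was the highest of its arrays, and without it the gene rose by 0.67 in hypoxic vehicle, short of 2-fold. TRAM2, an endoplasmic reticulum protein used in collagen synthesis, read 8.58, 8.77 and 8.59 with BB2-125, 10.92, 11.37 and 11.02 in hypoxic vehicle and 9.43, 9.74 and 9.79 in normoxia. The groups stood apart, with -1.01 ± 0.15 against normoxia (adjusted p = 1.18e-05). IL4R, the interleukin-4 receptor, read 7.74, 7.77 and 7.78 with BB2-125, 9.87, 10.10 and 9.85 in hypoxic vehicle and 8.40, 8.59 and 8.49 in normoxia. It changed by -0.73 ± 0.11 (adjusted p = 1.16e-05). The chemokine gene PPBP, the carbonic anhydrase CA2 and RAP1GAP2, which switches off the GTPase Rap1, were lower than normoxia too, at -0.55 ± 0.17, -0.53 ± 0.11 and -0.53 ± 0.13.
These 8 of the 16 genes kept their call under every alternative processing tried. The other 8 lost it under at least 1, and the count of 16 became 10 without BB2-125 replicate 2 and 10 without normoxic replicate 3. CTSL, a lysosomal protease, was the 1 gene lowered by hypoxia that lay above normoxia. It read 10.58, 10.19 and 10.54 with BB2-125, 8.68, 8.37 and 8.43 in hypoxic vehicle and 10, 10.32 and 10.13 in normoxia. The BB2-125 and normoxic arrays overlapped, and the change of 0.29 ± 0.12 (adjusted p = 0.0414) lost its call without BB2-125 replicates 1 or 3 or normoxic replicates 1 or 3, at 0.22, 0.24, 0.22 and 0.28. It was also lost after median centring, at 0.23 with an adjusted p of 0.122.

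**Figure D3:**
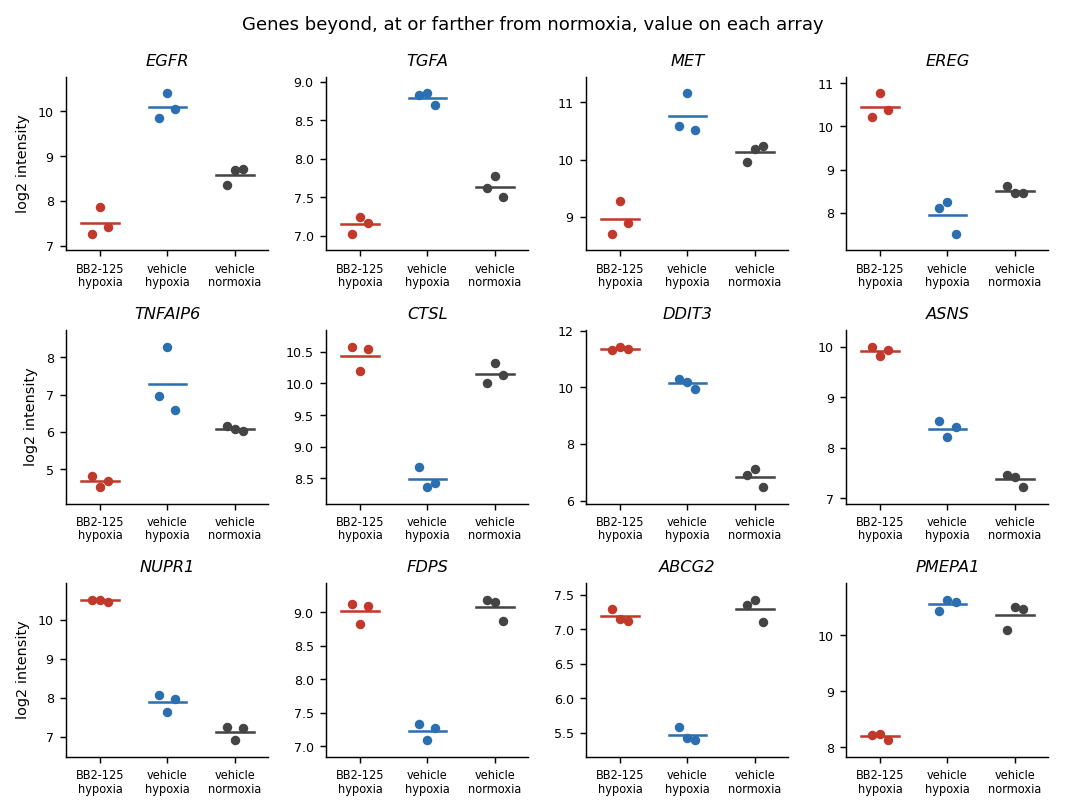
Log2 intensity on each array (y axis) for genes past the normoxic level, at it or far from it, with BB2-125 left of hypoxic vehicle and normoxic vehicle; points are arrays and lines are group means of 3. EGFR, TGFA and MET are lowest with BB2-125, DDIT3, ASNS and NUPR1 highest, and FDPS and ABCG2 overlap normoxia with hypoxic vehicle apart.

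Genes back at the normoxic level included EGLN3, the sterol synthesis gene FDPS and the chaperone gene CLU. Among those raised by hypoxia, the largest hypoxic rises belonged to EGLN3, PRSS3P2, RASGRP1, H4C8, PIP and TANC2. RASGRP1, an activator of Ras, read 5.42, 5.52 and 5.53 with BB2-125, 7.41, 7.74 and 7.16 in hypoxic vehicle and 5.10, 5.60 and 5.51 in normoxia. Its change was 0.09 ± 0.15 with a 95% interval of -0.23 to 0.41, and the arrays overlapped. The trypsinogen pseudogene PRSS3P2 and the histone gene H4C8 have near-identical copies, so their probe sets may read more than 1 gene. Their changes were -0.08 ± 0.16 and 0.09 ± 0.19, against 2.37 ± 0.16 and 1.82 ± 0.19 in hypoxic vehicle. PIP, a secreted glycoprotein, differed from normoxia by 0.02 ± 0.15 and TANC2, a scaffold protein of synapses, by -0.02 ± 0.17.
Among those lowered by hypoxia, ABCG2, a drug efflux pump, read 7.30, 7.15 and 7.12 with BB2-125, 5.58, 5.42 and 5.40 in hypoxic vehicle and 7.35, 7.43 and 7.10 in normoxia. It differed from normoxia by -0.10 ± 0.12 (95% interval -0.36 to 0.15). CLU, the secreted chaperone clusterin, read 11.22, 11.19 and 11.34 with BB2-125, 9.20, 9.41 and 9.24 in hypoxic vehicle and 11.09, 11.15 and 11.13 in normoxia. Its change was 0.13 ± 0.11 (95% interval -0.11 to 0.37). HSPH1, a cytosolic chaperone of the heat shock family, changed by -0.17 ± 0.14, with -1.87 ± 0.14 in hypoxic vehicle. The histone gene H3C11, whose copies are near-identical too, changed by 0.15 ± 0.12, with -1.99 ± 0.12 in hypoxic vehicle.
Some of these placements rest on single arrays, without which the interval passed 0.5 although the gene was still not called. For PRSS3P2 these were BB2-125 replicate 1 and normoxic replicate 2, with changes of -0.29 and -0.14. For RASGRP1 they were normoxic replicates 2 and 3, at 0.19 and 0.14, and for TANC2 normoxic replicate 1, at -0.23. HSPH1 lost its place without BB2-125 replicate 2 and normoxic replicates 1 and 3, at -0.30, -0.22 and -0.17. H4C8 did without BB2-125 replicates 2 and 3, hypoxic vehicle replicate 1 and each normoxic replicate, at 0.04 to 0.15.

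Sterol synthesis genes as a list had a median nearer to normoxia than in hypoxic vehicle. Of 19 tested, 3 were higher and 9 lower than normoxia with BB2-125, with a median of -0.25, against 0 higher, 15 lower and a median of -1.17 in hypoxic vehicle. The shares over all genes with BB2-125 against normoxia were 31.5% higher and 30.5% lower. Against hypoxic vehicle 15 of the sterol genes were higher and 0 lower, where 13.3% and 15% of all genes were. FDPS, which makes farnesyl diphosphate, read 9.13, 8.82 and 9.10 with BB2-125, 7.33, 7.10 and 7.27 in hypoxic vehicle and 9.19, 9.16 and 8.87 in normoxia, a change of -0.06 ± 0.12 from normoxia (95% interval -0.31 to 0.19). EBP, a sterol isomerase, was not called at -0.25 ± 0.12 (adjusted p = 0.0758), but was after median centring, at -0.31 (adjusted p = 0.0454), without hypoxic vehicle replicate 3, at -0.25 (adjusted p = 0.0391), with the groups of the comparison alone (adjusted p = 0.0281) and with the replicate block in those groups (adjusted p = 0.0476). Its interval passed 0.5 in size without any 1 BB2-125 or normoxic array or hypoxic vehicle replicate 2, at -0.28 to -0.22, so its place at the normoxic level is unsettled. HMGCS1, early in the pathway, stayed below normoxia, at -1.48 ± 0.11, against -2 ± 0.11 in hypoxic vehicle. Fatty acid synthesis and desaturation genes had 4 of 20 higher and 14 lower and a median of -0.72, against -0.94 in hypoxic vehicle.

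Mitochondrial translation and respiration genes had medians close to that of all genes, 0.095, in BB2-125 against normoxia, and medians below normoxia in hypoxic vehicle. Of all genes 31.5% were higher and 30.5% lower with BB2-125. Of 73 tested genes of the mitochondrial ribosome, 28 were higher and 22 lower than normoxia, with a median of 0.16, against 6 higher, 39 lower and a median of -0.33 in hypoxic vehicle. Of 78 tested respiratory chain genes, 25 were higher and 13 lower with a median of 0.14, against 9, 32 and -0.19. Against hypoxic vehicle 37 and 26 genes of these lists were higher, and 1 and 0 lower, where 13.3% and 15% of all genes were. Proteasome subunits also lay near the shares of all genes with BB2-125, with 9 of 35 higher and 10 lower than normoxia and a median of 0.038, against 1, 17 and -0.42 in hypoxic vehicle. The tricarboxylic acid cycle list had 2 of 22 higher, 13 lower and a median of -0.80, against 1, 13 and -0.49 in hypoxic vehicle. Set directly against hypoxic vehicle, 5 of its genes were higher and 4 lower, with a median difference of 0.15. Cytosolic ribosomal protein genes were mostly raised, 53 of 59 with BB2-125 and 45 in hypoxic vehicle, with medians of 0.57 and 0.46.

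**Figure D4:**
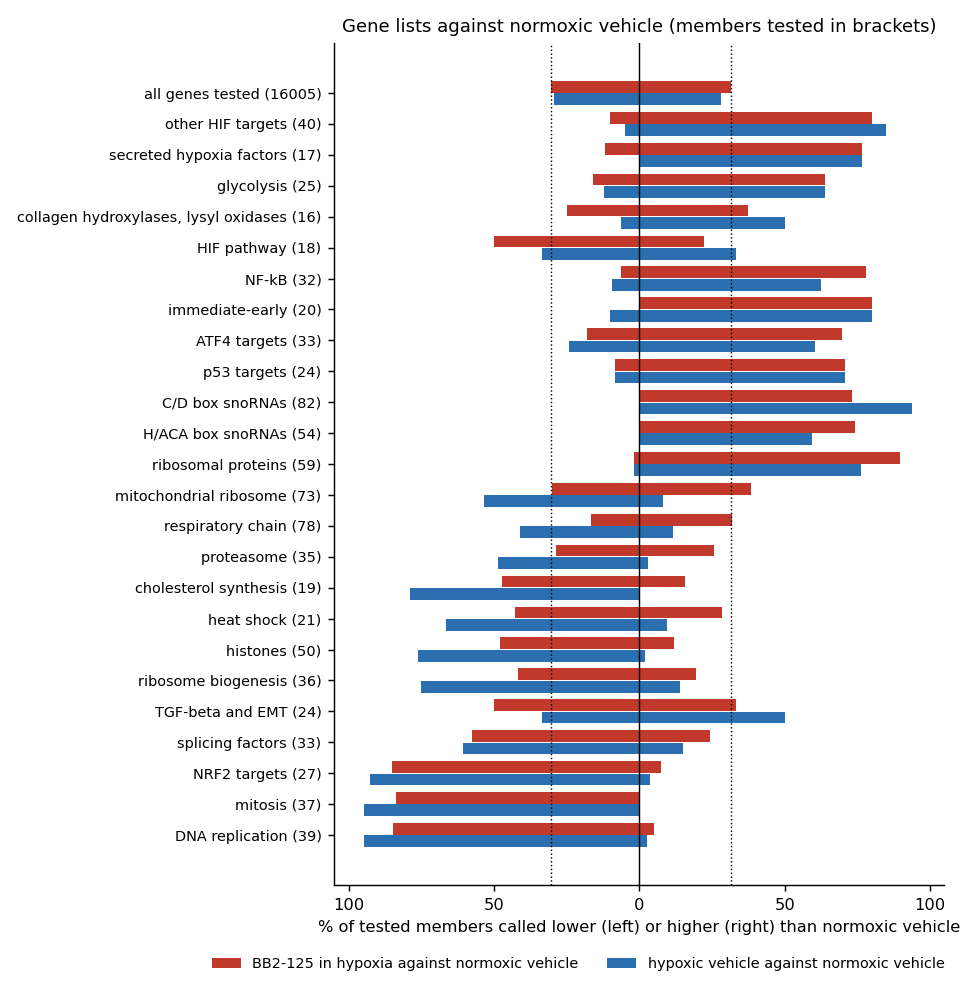
Percent of the tested members of each gene list called lower (left of 0) or higher (right of 0) than normoxic vehicle, with BB2-125 above hypoxic vehicle in each pair of bars; dotted lines mark the shares over all genes with BB2-125. Bars for the mitochondrial ribosome reach farther right with BB2-125 and farther left in hypoxic vehicle, and those for mitosis and DNA replication reach far left in both.

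The largest rises over normoxia that are not HIF targets included genes of the integrated stress response and of inflammatory signalling. Of 33 tested ATF4 targets, 23 rose and 6 fell, where 31.5% of all genes were higher and 30.5% lower. Their median was 1.06, against 0.76 in hypoxic vehicle. DDIT3, the stress transcription factor CHOP, read 11.30, 11.44 and 11.34 with BB2-125, 10.31, 10.19 and 9.95 in hypoxic vehicle and 6.92, 7.11 and 6.49 in normoxia. The BB2-125 arrays were the highest. It rose by 4.52 ± 0.13 over normoxia (adjusted p = 8.67e-15) and 1.21 ± 0.13 over hypoxic vehicle (adjusted p = 1.64e-06).
PPP1R15A, the phosphatase subunit that ends the stress block on translation, read 11.67, 11.69 and 11.63 with BB2-125, 10.81, 10.25 and 11.02 in hypoxic vehicle and 7.47, 7.45 and 7.18 in normoxia. It rose by 4.29 ± 0.14 (adjusted p = 4.74e-14). NUPR1, a small stress-induced nuclear protein, read 10.49, 10.51 and 10.46 with BB2-125, 8.06, 7.64 and 7.96 in hypoxic vehicle and 7.24, 6.92 and 7.22 in normoxia. It rose by 3.36 ± 0.12, most of it beyond hypoxia alone, since the excess over hypoxic vehicle was 2.60 ± 0.12 (adjusted p = 9.91e-11). ATF3, a stress transcription factor, was at 2.75 ± 0.18 and ASNS, which makes asparagine, at 2.54 ± 0.11 over normoxia, against 1.30 ± 0.18 and 1 ± 0.11 in hypoxic vehicle. SLC7A11, the cystine transporter, is on the same list but changed by -3.68 ± 0.14, against -5.11 ± 0.14 in hypoxic vehicle.
Of 32 tested NF-kB genes, 25 rose and 2 fell, with a median of 0.86, where 31.5% of all genes were higher and 30.5% lower. In hypoxic vehicle 20 rose and 3 fell, with a median of 1.05. Between BB2-125 and hypoxic vehicle, 8 of these genes were higher with BB2-125 and 7 lower. CCL20, a chemokine for lymphocytes, read 8.87, 8.61 and 8.80 with BB2-125, 9.38, 9.17 and 9.34 in hypoxic vehicle and 4.47, 4.56 and 4.16 in normoxia, where it lay at the dim level. Its fitted rise was 4.36 ± 0.11 (adjusted p = 2.64e-15), and counted from the dim level it was at least 4.15. TNFAIP3, a brake on NF-kB, read 9.57, 10.03 and 9.64 with BB2-125, 9.71, 9.76 and 9.79 in hypoxic vehicle and 5.58, 5.43 and 5.96 in normoxia. The hypoxic groups overlapped, and the rise was 4.09 ± 0.18 (adjusted p = 9.77e-13).
DUSP5, a phosphatase of ERK, rose by 3.54 ± 0.12. Among 20 immediate early genes, 16 rose and 0 fell, with a median of 0.94 against 0.56 in hypoxic vehicle. The shares over all genes, here and for the p53 targets below, were 31.5% higher and 30.5% lower. JUN, a subunit of AP-1, rose by 3.16 ± 0.14. Of 24 p53 targets 17 rose and 2 fell, with GDF15, a stress cytokine, at 3.04 ± 0.11 and GADD45A, a growth arrest protein, at 2.31 ± 0.13. Hypoxic vehicle gave 17 and 2 for the p53 targets as well, with a median of 0.47 against 0.69 with BB2-125. PTGES, which makes prostaglandin E2, rose by 2.87 ± 0.10, against 1.13 ± 0.10 in hypoxic vehicle.

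The genes with the deepest falls below normoxia were also called lower in hypoxic vehicle. SLC40A1, the iron exporter ferroportin, read 5.05, 4.76 and 5.02 with BB2-125, 4.98, 4.80 and 4.86 in hypoxic vehicle and 9.83, 9.81 and 9.71 in normoxia. It changed by -4.84 ± 0.11 (adjusted p = 4.67e-16), and its difference from hypoxic vehicle was 0.06 ± 0.11 (95% interval -0.16 to 0.29). OR51E1, an olfactory receptor gene, read 5.11, 5.25 and 5.10 with BB2-125, 5.62, 5.68 and 5.63 in hypoxic vehicle and 9.94, 10.07 and 9.72 in normoxia. It changed by -4.76 ± 0.10 (adjusted p = 4.67e-16) and was -0.49 ± 0.10 against hypoxic vehicle (adjusted p = 0.00119). CDH6, a cadherin of cell adhesion, changed by -4.45 ± 0.14, BAAT, which conjugates bile acids, by -4.43 ± 0.18, and EHF, an epithelial transcription factor, by -4.23 ± 0.14, where hypoxic vehicle gave -3.88 ± 0.14, -4.09 ± 0.18 and -4.17 ± 0.14. Changes for HPGD, which degrades prostaglandins, and MANSC1 were -4.39 ± 0.23 and -4.03 ± 0.10, and -4.36 ± 0.23 and -3.91 ± 0.10 in hypoxic vehicle.
IQGAP2, a scaffold protein, ESCO2, which acetylates cohesin, and ST8SIA4, which makes polysialic acid, reached the dim level with BB2-125 and in hypoxic vehicle. Counted from that level their changes with BB2-125 were -4.30, -3.42 and -3.34 or lower, with fitted values of -4.54 ± 0.14, -4.42 ± 0.14 and -4.10 ± 0.10, against fitted values of -4.39 ± 0.14, -4.93 ± 0.14 and -4.21 ± 0.10 in hypoxic vehicle.
PDE3A, a phosphodiesterase of cyclic nucleotides, was deeper with the compound. It read 6.41, 6.36 and 6.42 with BB2-125, 8.12, 8.57 and 7.85 in hypoxic vehicle and 10.31, 10.53 and 10.37 in normoxia. No groups overlapped, and it changed by -4.01 ± 0.16 against normoxia and -1.78 ± 0.16 against hypoxic vehicle (adjusted p = 1.88e-07). The same order held for THBS1, a matrix glycoprotein, at -3.10 ± 0.14 with BB2-125 and -1.52 ± 0.14 in hypoxic vehicle, and for CEMIP2, a hyaluronidase, at -3.24 ± 0.12 and -1.51 ± 0.12. MUC5B, a gel-forming mucin, was at -3.05 ± 0.20 and -1.66 ± 0.20.

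Proliferation genes remained low. Of 39 tested DNA replication genes, 2 were higher and 33 lower than normoxia, where 31.5% of all genes were higher and 30.5% lower. Their median was -1.11, against -1.42 in hypoxic vehicle. Of 37 mitosis genes, 0 were higher and 31 lower, with a median of -1.22 against -1.70. GINS1, a subunit of the replicative helicase, changed by -3.24 ± 0.10 and KIF20A, a mitotic kinesin, by -3.50 ± 0.11. Against hypoxic vehicle 25 replication and 19 mitosis genes were higher and none of the tested members was called lower. In that comparison 13.3% of all genes were higher and 15% lower. Histone genes had 6 of 50 higher and 24 lower than normoxia, with a median of -0.34, against -0.89 in hypoxic vehicle, and many of them share near-identical copies.

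NRF2 targets, which encode antioxidant enzymes and are known to be highly active in A549, stayed low. Of 27 tested, 2 rose and 23 fell, where 31.5% of all genes were higher and 30.5% lower. Their median was -1.35, against -1.92 in hypoxic vehicle. NQO1, a quinone reductase, read 11.40, 11.41 and 11.41 with BB2-125, 9.78, 9.67 and 9.46 in hypoxic vehicle and 12.53, 12.67 and 12.53 in normoxia. It changed by -1.17 ± 0.11 against normoxia and lay 1.77 ± 0.11 above hypoxic vehicle. GCLM, a subunit of the enzyme for glutathione synthesis, changed by -2.79 ± 0.14, against -3.44 ± 0.14 in hypoxic vehicle. Iron genes had 4 of 16 higher and 8 lower. CP, the plasma ferroxidase ceruloplasmin, read 6.46, 6.45 and 6.38 with BB2-125, 8.63, 9.31 and 8.40 in hypoxic vehicle and 8.19, 8.54 and 8.45 in normoxia, a change of -1.96 ± 0.18 (adjusted p = 2.61e-08) that hypoxia alone did not show, at 0.39 ± 0.18.

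Some genes that came much nearer to normoxia were still away from it. They were named after their values were seen. SPP1, the secreted protein osteopontin, read 10.84, 10.83 and 10.88 with BB2-125, 8.15, 8.26 and 7.88 in hypoxic vehicle and 12.21, 12 and 12 in normoxia. BB2-125 lay between the vehicle groups, at -1.22 ± 0.11 from normoxia against -3.97 ± 0.11 in hypoxic vehicle. IDH1, the cytosolic isocitrate dehydrogenase, was at -1.20 ± 0.14 against -3.61 ± 0.14, and PDK4, another pyruvate dehydrogenase kinase, at -2.41 ± 0.15 against -4.31 ± 0.15. On the raised side ETS1, a transcription factor, was at 1.83 ± 0.10 against 3.62 ± 0.10 in hypoxic vehicle. F3, which encodes tissue factor, was at 1.03 ± 0.13 against 3.21 ± 0.13, and TNS1, a focal adhesion protein, at 0.69 ± 0.12 against 3.05 ± 0.12.

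A small set of genes was away from normoxia with BB2-125 and at the normoxic level in hypoxic vehicle. Whether these genes were away from normoxia with BB2-162 or BB2-282 was not tested. At least 2-fold from normoxia with BB2-125 and called against both vehicles were 11 higher and 45 lower genes of this kind. The count of 11 became 17 without BB2-125 replicate 2. Of the 10 genes of this set named next, all but PACC1 and TAB2 left the set without 1 or more of the 6 vehicle arrays, where their change in hypoxic vehicle was -0.30 to 0.27 with an interval past 0.5 in size. Each kept its call against normoxia.
CGAS, a sensor of cytosolic DNA, read 7.81, 7.83 and 7.82 with BB2-125, 5.98, 5.30 and 5.63 in hypoxic vehicle and 5.57, 5.84 and 5.86 in normoxia. The vehicle groups overlapped and BB2-125 stood above both, with a rise of 2.06 ± 0.13 (adjusted p = 2.19e-10). HSPA6, an inducible heat shock protein, read 7.75, 7.72 and 7.84 with BB2-125, 5.97, 5.74 and 6.01 in hypoxic vehicle and 5.91, 5.41 and 6.05 in normoxia. It rose by 1.98 ± 0.15 (adjusted p = 2.24e-09). The list of 21 heat shock genes as a whole had 6 higher and 9 lower, where 31.5% of all genes were higher and 30.5% lower. Its median was -0.17, against -0.52 in hypoxic vehicle. Other rises were those of SNORD75, a small nucleolar RNA, at 2.55 ± 0.16, PACC1, a proton-activated chloride channel, at 1.50 ± 0.13, and ZNF57, a zinc finger gene, at 1.41 ± 0.11.
PMEPA1, a target and brake of TGF-beta signalling, read 8.22, 8.24 and 8.13 with BB2-125, 10.44, 10.64 and 10.59 in hypoxic vehicle and 10.10, 10.51 and 10.48 in normoxia. The vehicle groups overlapped and BB2-125 lay below both, with a change of -2.17 ± 0.11 (adjusted p = 9.96e-12). NR5A2, a nuclear receptor, changed by -1.82 ± 0.16, TAB2, an adaptor of the kinase TAK1, by -1.67 ± 0.11, DCBLD1 by -1.90 ± 0.12 and ZNFX1 by -1.70 ± 0.15. Of 24 genes of the TGF-beta response and the epithelial to mesenchymal transition, 8 were higher and 12 lower with BB2-125, with a median of -0.30, against 12, 8 and 0.33 in hypoxic vehicle. The shares over all genes with BB2-125 were 31.5% higher and 30.5% lower. The TGF-beta and transition list holds epithelial as well as mesenchymal genes. TNS4, a focal adhesion protein, changed by -2.26 ± 0.14, and SMAD7, an inhibitor of TGF-beta signalling, differed from normoxia by -0.08 ± 0.11.

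BB2-125 was set against the other compounds at the same dose and time in 2 pairs. Against BB2-162 it gave 4182 calls (26.1%), with 2672 higher (16.7%) and 1510 lower (9.43%), a share of 63.9% higher that became 74.4% after median centring. That count rests on single arrays. It was 6208 without BB2-162 replicate 1 and 2645 without BB2-162 replicate 3, and 2582 with the arrays of those 2 groups alone. Against BB2-282 it gave 5813 calls (36.3%), with 2992 higher (18.7%) and 2821 lower (17.6%). Both pairs are tested over all genes, with adjustment within each pair.
BB2-125 and BB2-282 differed in several of the genes described above. LOX averaged 5.90 with BB2-125 and 9.36 with BB2-282, a difference of -3.46 ± 0.16 (adjusted p = 5.1e-11). The hypoxic vehicle arrays of LOX, given earlier, all lay between these means. EGFR averaged 7.51 with BB2-125 and 10.20 with BB2-282, a difference of -2.69 ± 0.17 (adjusted p = 2.26e-09). EGLN3 was -1.04 ± 0.12 and VEGFA -1.01 ± 0.11 with BB2-125 against BB2-282. All 4 genes were thus lower with BB2-125 than with BB2-282. PDK4 averaged 8.89 with BB2-125 and 6.05 with BB2-282, a difference of 2.83 ± 0.15 (adjusted p = 1.77e-10), and FGB, a fibrinogen chain, 8.72 and 5.14, a difference of 3.58 ± 0.17.
Against BB2-162 the sizes and directions were others. EGFR averaged 7.51 with BB2-125 and 6.70 with BB2-162, a difference of 0.81 ± 0.17 (adjusted p = 0.0021). VEGFA was -0.82 ± 0.11 (adjusted p = 3.53e-05). LOX and EGLN3 were not called, at 0.36 ± 0.16 with a 95% interval of 0.03 to 0.68, and 0.25 ± 0.12 with an interval of -0.01 to 0.50. The largest differences from BB2-162 were in CEACAM5, a cell surface glycoprotein, at -2.32 ± 0.15, CST1, a cystatin, at -2.15 ± 0.16, and EFNA1 at -1.93 ± 0.10, all lower with BB2-125. C5, a complement protein, was higher by 2.07 ± 0.18 (adjusted p = 3.1e-07).

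**Figure D5:**
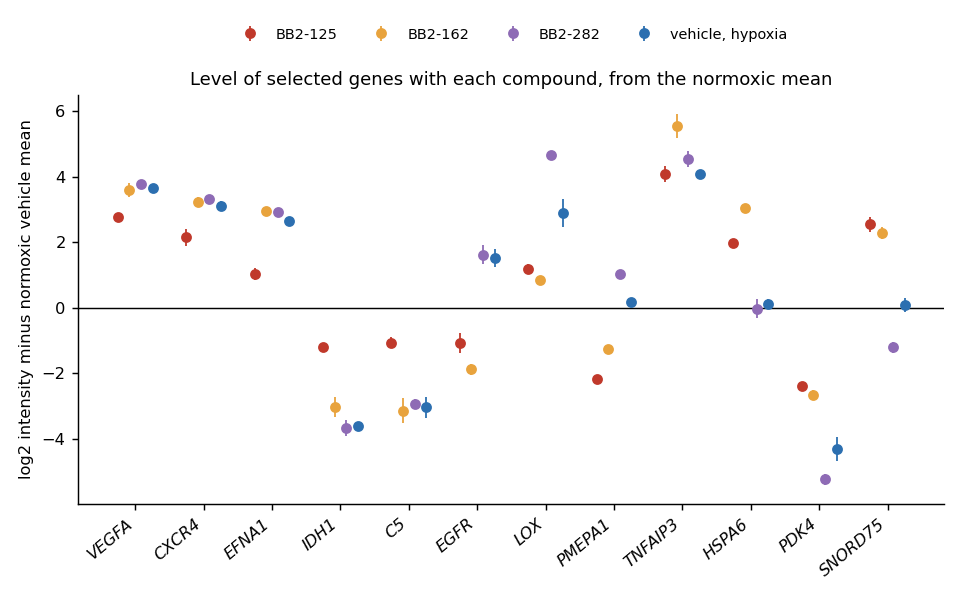
Group mean of log2 intensity minus the normoxic mean (y axis) for named genes with BB2-125, BB2-162, BB2-282 and hypoxic vehicle; points are means of 3 arrays and error bars their SD. LOX, EGFR and VEGFA are lower with BB2-125 than with BB2-282, and C5 and IDH1 are nearest to 0 with BB2-125.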

How the data were processed

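RNA of 15 A549 cultures was read on Affymetrix whole-transcript arrays, 5 groups of 3, mapped by their titles. The authors deposited linear intensity values for 28869 probe sets, which the submitters' processing notes credit to RMA, a method that corrects background, normalises between arrays and summarises probes; software, version and build are not given in the sources used here. RMA makes overall brightness alike, so a change in total RNA is not measured. Values were turned into log2 here. Of the probe sets, 21062 were listed in the annotation, 19310 with 1 symbol, 1752 with several (unused) and 7807 unnamed; 19279 were matched through their Entrez ID and 31 kept their listed symbol. Each of 18377 genes was represented by its brightest probe set (685 had more than 1), and 16005 exceeded the array's 25th percentile on at least 3 arrays.

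Limma 3.58.1 in R 4.3.3 fitted group means to all 15 arrays (10 residual and 7.96 prior degrees of freedom), with Benjamini-Hochberg adjustment within each comparison. BB2-125 and hypoxic vehicle are each compared with the same 3 normoxic arrays. On simulated data for 16005 genes in BB2-125 against normoxic vehicle, 59.1%, 92.5% and 100% of changes of 0.5, 1 and 2 log2 units were recovered, with 8 calls among 15805 unchanged genes. The simulation had independent noise and few changed genes, in the BB2-125 group alone. In the data 62% of genes were called, so these rates need not carry over. With 3 arrays against 3, an exact permutation test of a single gene cannot go below 0.1, so no such test was used.

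Members, 45 gene lists and tests were chosen with earlier results of these data known. Genes were named by rule: the 12 largest rises and falls, up to 6 per class at or beyond normoxia and 5 per direction away with BB2-125 but not in hypoxic vehicle, 4 of lowest p per list, the 4 largest per direction against each other compound, and 13 genes of the HIF pathway and its targets or receptors. Of the largest falls 1 is not reported here. Other genes named, and the bound at the dim level, were chosen after their values were seen. Promoters are from RefSeq, GRCh38.p14, for genes of the 4 lists of HIF targets. They are the 2 with the largest called rise over normoxia and the 2 with the largest hypoxic rise among those not called higher than normoxia.

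Replicate numbers in the titles were checked as pairing. Deviations from the group mean correlated at 0.036, -0.077 and 0.032 between same-numbered BB2-125 and normoxic arrays, so these were not treated as pairs. Between BB2-125 and hypoxic vehicle arrays they correlated at 0.328, 0.286 and 0.189. Over all pairs of groups these values ran from -0.429 to 0.58. Arrays of unlike number were not compared, so the check cannot show pairing. Alternatives were other normalisations, filters, margins and sample sets, a replicate block and leaving out arrays; leaving out BB2-162 and BB2-282 arrays was added after seeing the data. Figures were drawn with matplotlib 3.10.9.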

Additional observations from a re-analysis of the deposited data

How the results depend on the processing

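The comparison with normoxia gave 8465 to 10537 calls when 1 BB2-125 or normoxic array or BB2-162 replicate 1 was left out, against 9916 with all arrays. Genes called and at least 2-fold numbered 2604 to 2848, against 2694. The other arrays that share in the estimate of the spread were not left out of this comparison. Limma's treat test against a 2-fold change called 1422. Median centring moved the share of calls that were higher to 44.6%, against 50.8%. With the replicate number as a block in the fit of all arrays 9830 genes were called. Against hypoxic vehicle that block gave 4444 calls rather than 4539. The block in those groups alone gave 5352, against 4472 without it. The block moved no count by over 1.5 times except those named here. The classes were counted again without 1 BB2-125, normoxic or hypoxic vehicle array or BB2-162 replicate 1. Raised genes still above normoxia then numbered 709 to 752, those at the normoxic level 39 to 60, those beyond it 10 to 20 and those not placed 26 to 66. Lowered genes numbered 1748 to 1922, 22 to 33, 0 to 4 and 17 to 50 in the same classes. Genes away with BB2-125 and at the normoxic level in hypoxic vehicle numbered 9 to 17 higher and 37 to 53 lower. The 1 lowered gene beyond normoxia became 2 after median centring, 2 after quantile normalisation and 0 with the replicate block, with the groups of the comparison alone and with both. With both, the genes not placed numbered 10 and 12 for raised and lowered genes. A margin of 1 put 77 raised and 54 lowered genes at the normoxic level and left 9 and 1 not placed. With no minimum fold for the hypoxia response, raised genes divided into 3314 still above, 780 at the level, 151 beyond and 263 not placed, and lowered genes into 3878, 555, 89 and 177. Without 1 array of the groups compared, hypoxic vehicle against normoxia gave 7827 to 8960 calls and BB2-125 against hypoxic vehicle 3770 to 4101. BB2-125 against BB2-282 gave 4973 to 5388, and against BB2-162 2645 to 6208, with 2582 for the groups of that comparison alone and 1849 for these with the replicate block, where the share higher was 71.8% and 75.3%. The cause of these shifts was not tested. Of 265 genes examined singly over the alternatives, 3885 of 3974 values kept their side of the threshold, 82 lost a call, 7 gained one and 0 reversed. Signals near the dim level limit changes of the dimmest genes to bounds.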

Other observations

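Small RNA and RNA processing genes also differed from normoxia, where 31.5% of all genes were higher and 30.5% lower with BB2-125. Of 82 tested C/D box small nucleolar RNA genes, 60 were higher and 0 lower with BB2-125, against 77 and 0 in hypoxic vehicle, with medians of 1.09 and 1.13. Of 54 H/ACA box genes 40 were higher and 0 lower, with a median of 0.76. Many of these RNAs are short and some have near-identical copies, so single probe sets are uncertain. SNORD77 and SNORA29 lay at the dim level in normoxia and rose by at least 2.40 and 1.90 counted from it, with fitted rises of 3.46 ± 0.23 and 2.38 ± 0.31. Splicing factor genes had 8 of 33 higher and 19 lower, with HNRNPAB, an RNA-binding protein, at -2.16 ± 0.10. Of 36 ribosome biogenesis genes 7 were higher and 15 lower, with a median of -0.18, against -0.59 in hypoxic vehicle. Among 22 elongation factor and BET protein genes 4 rose and 12 fell, with HEXIM1, an inhibitor of the elongation kinase P-TEFb, at -2.36 ± 0.11. RNU5D-1, a spliceosomal RNA gene, was uneven among BB2-125 arrays, at 8.70, 5.32 and 6.69, against 3.93, 4 and 3.66 in hypoxic vehicle and 3.53, 4.30 and 4.06 in normoxia. It lay at the dim level in both vehicle groups, and its rise counted from that level was at least 2.30 over normoxia.

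Acute-phase and interferon-stimulated genes were more often lower than higher, while 16 of 28 integrin and laminin genes were not called. Of all 16005 genes tested, 6089 were not called. Of 16 tested acute-phase and complement genes 2 were higher and 9 lower than normoxia, with a median of -0.36, and FGA, a fibrinogen chain, was at -3.14 ± 0.12. Of 20 interferon-stimulated genes 4 were higher and 11 lower, with IFIT5, an RNA-binding antiviral protein, at -1.97 ± 0.11 as fitted and at -1.60 or lower counted from the dim level. Among 28 integrin and laminin genes 6 were higher and 6 lower, with ITGA6, a laminin receptor chain, at -2.92 ± 0.16. Collagen chain genes had 9 of 41 higher and 4 lower. Metallothionein and zinc genes went up, with 9 of 12 higher and 2 lower, and MT1X, whose copies are near-identical, at 2.53 ± 0.13 against 3.52 ± 0.13 in hypoxic vehicle. Of 10 housekeeping genes 1 was higher and 8 were lower, with a median of -0.56, against 0, 8 and -0.37 in hypoxic vehicle. Set directly against hypoxic vehicle, 2 housekeeping genes were higher and 1 lower, with a median difference of 0.027. Of 16 genes of feedback on ERK 9 were higher and 2 lower, of 11 cell cycle brakes 6 and 4, and of 5 EGF receptor ligands 2 and 1. Endoplasmic reticulum chaperones had 6 of 24 higher and 7 lower, aryl hydrocarbon receptor targets 3 of 10 and 5, and lung lineage genes 7 of 19 and 4. Across all genes 31.5% were higher and 30.5% lower. With genes divided into 4 bins by mean signal, the median change with BB2-125 was 0.155, 0.118, -0.068 and 0.050 from the dimmest bin to the brightest.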
